A study of Mus musculus with 24 samples.

Results

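The genes for calcitonin gene-related peptide (CGRP) and for the parts of its receptor were followed across whole spinal cord of mice with mutant or wild-type Gars and with both, a single or no intact copy of Gcn2. They are 7 of the 38924 genes in the deposited tables: the peptide genes Calca and Calcb, the receptor gene Calcrl, the accessory protein genes Ramp1, Ramp2 and Ramp3, and Crcp. They were chosen by gene symbol for what they encode, and for one result: the CPM (counts relative to library totals scaled by TMM) of the peptide genes falls with mutant Gars also in mice without Gcn2. Their values were compared over all 6 genotypes for this choice, so every difference of Calca and Calcb between genotypes is a description with no test, whereas the receptor parts were tested. All 7 genes passed the filter on low counts.

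CGRP is a neuropeptide made by sensory neurons of the dorsal root ganglia, whose axons end in the dorsal horn, and by motor neurons, whose cell bodies lie in the spinal cord. Its receptor is a heterodimer: the membrane protein from Calcrl binds CGRP when paired with RAMP1, and adrenomedullin when paired with RAMP2 or RAMP3. Receptor activation raises cAMP through the G protein Gs, and Crcp encodes a small intracellular protein that couples the receptor to this signal and is also a subunit of RNA polymerase III.

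Poly(A) RNA was sequenced in 24 spinal cord libraries of mice aged 8 weeks on the B6J;CASTxB6.129 background, 13 male and 11 female. The 6 groups were Gcn2+/+;GarsP278KY/+ (4 libraries) and Gcn2+/+;Gars+/+ (4), Gcn2+/-;GarsP278KY/+ (4) and Gcn2+/-;Gars+/+ (4), and Gcn2-/-;GarsP278KY/+ (5) and Gcn2-/-;Gars+/+ (3). GarsP278KY/+ animals carry a single copy of a dominant mutant allele of glycyl-tRNA synthetase, a model of Charcot-Marie-Tooth disease type 2D. Gcn2, gene symbol Eif2ak4, is the eIF2 alpha kinase that responds to uncharged tRNA and stalled ribosomes. The labels name no Cre driver or transgene.

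Libraries held between 19.7 M and 32.4 M counts (M, 1e6). Eif2ak4 had 11.7 to 14.3 CPM in Gcn2-/-;GarsP278KY/+ and 11.4 to 15.0 CPM in Gcn2-/-;Gars+/+ libraries, against 28.8 to 34.3 CPM in Gcn2+/+;Gars+/+ libraries and 20.4 to 23.6 CPM in all Gcn2+/- libraries, in the order of the labels. Gars had between 132 and 154 CPM in all groups, and its level does not check the mutant label. The mean log2 CPM of 16 Schwann cell genes was above 3 in 5 libraries: Gcn2+/+;GarsP278KY/+ replicates 2 and 4, Gcn2+/-;GarsP278KY/+ replicate 4, and Gcn2+/-;Gars+/+ replicates 1 and 3. In the other libraries it lay between 1.80 and 2.87. Of these 16 genes edgeR called 0 with mutant Gars at any Gcn2 genotype, while their median log2 change was 1.90 in Gcn2+/+ (8 above, 0 below at an unadjusted p under 0.05; DESeq2 called 6 higher), -1.45 in Gcn2+/- (0 above, 10 below; DESeq2 called 3 lower) and 0.15 in Gcn2-/- mice (0 and 0; DESeq2 called 0). Some, but not all, results of the 7 genes that rest on these 5 libraries are also given without them.

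The exon that encodes CGRP is shown for both peptide genes, because it bears on whether their reads can be told apart. Calca lies on chromosome 7 at 114631478 to 114636357 on the minus strand, and Calcb at 114718643 to 114723365 on the plus strand of GRCm38 (GENCODE M21). The coding part of exon 4 with its stop codon spans 114632440 to 114632599 in Calca and 114721975 to 114722137 in Calcb, and is read here from the GENCODE M21 transcripts. Capitals mark bases that differ between the genes in a global alignment, including 3 bases of Calcb with no partner in Calca.
Calca: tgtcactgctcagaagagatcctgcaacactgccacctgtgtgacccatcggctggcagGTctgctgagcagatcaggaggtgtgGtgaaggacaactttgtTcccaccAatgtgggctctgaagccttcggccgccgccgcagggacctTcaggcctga
Calcb: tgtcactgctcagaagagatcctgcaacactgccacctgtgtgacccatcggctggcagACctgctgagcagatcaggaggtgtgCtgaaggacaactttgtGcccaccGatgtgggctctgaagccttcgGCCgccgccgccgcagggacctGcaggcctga
Of 163 aligned positions 154 were identical (94.5%), against 74.2% in the coding part of exon 2 and 75.0% in exon 3. The longest run shared by the whole transcripts was 60 bases, shorter than the 75 bases of a read, and no window of 75 bases was shared. The authors' expected counts divide a read that matches several genes. Those of Calca were whole numbers in all 24 libraries. Those of Calcb were read rounded to 3 digits and were whole at that rounding, which can hide decimals.

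Levels between genes were compared in TPM, which is per transcript length. In mutant Gars libraries the median TPM ran from Ramp1 (34.5) through Crcp (27.2), Ramp2 (25.8), Calcrl (14.2), Calca (12.1) and Calcb (4.56) to Ramp3 (3.09). In Gars+/+ libraries Calca came first at a median of 54.0 TPM, followed by Ramp1 (30.4), Crcp (28.0), Ramp2 (25.3), Calcrl (13.9), Calcb (11.6) and Ramp3 (3.11). Calca thus stood above every receptor part in median TPM with wild-type Gars and below Calcrl with mutant Gars. Among mutant libraries the ranges of Ramp1 (22.6 to 37.8 TPM), Crcp (25.0 to 31.5 TPM) and Ramp2 (20.2 to 35.7 TPM) overlapped, as did those of Calcrl (10 to 21.9 TPM) and Calca (9.42 to 18.6 TPM), so the order within these sets was not clear of their spread. Calcb (3.44 to 6.96 TPM) and Ramp3 (2.65 to 4.86 TPM) overlapped with mutant Gars but not in Gars+/+ libraries (9.92 to 14.1 TPM and 2.18 to 4.13 TPM).

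**Figure D1:**
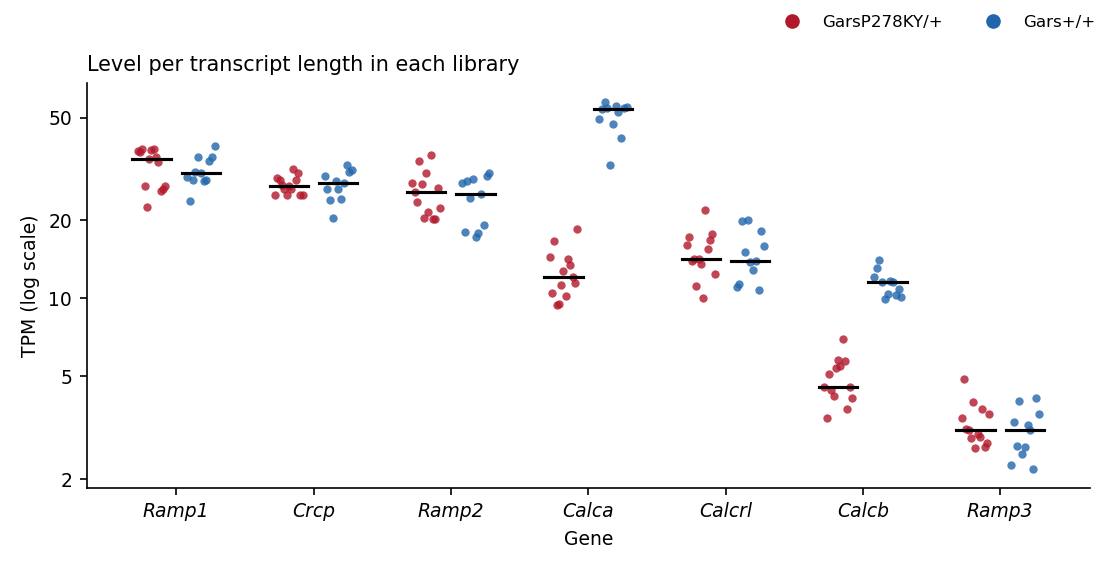
TPM of each gene (log scale) in the 13 GarsP278KY/+ libraries (red, left) and the 11 Gars+/+ libraries (blue, right); points are libraries and bars are medians. The median of Calca is 12.1 TPM with mutant Gars and 54.0 TPM with wild-type Gars, while the points of the receptor parts overlap.

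Calca encodes CGRP alpha and, from another 3' exon, calcitonin. It had 3.91, 4.08, 5.75 and 6.79 CPM in Gcn2+/+;GarsP278KY/+ cords, against 20.8, 23.6, 23.9 and 24.7 CPM in Gcn2+/+;Gars+/+ cords. In mice with a single Gcn2 copy it had 4.82, 5.17, 5.65 and 7.79 CPM with mutant Gars, against 17.0, 21.9, 22.6 and 22.7 CPM with wild-type Gars. Without Gcn2 it had 4.09, 4.44, 4.59, 5.21 and 5.89 CPM with mutant Gars, against 13.8, 20.2 and 24.8 CPM with wild-type Gars. Every mutant library lay below every wild-type one, 3.91 to 7.79 CPM over 13 mutant libraries against 13.8 to 24.8 CPM over 11 Gars+/+ libraries. With Gcn2 intact the mean was 5.13 ± 1.38 CPM in mutants and 23.2 ± 1.72 CPM in Gars+/+ cords (SD, n = 4 each), and without Gcn2 it was 4.84 ± 0.711 CPM in mutants (n = 5) and 19.6 ± 5.53 CPM in Gars+/+ cords (n = 3). The fitted log2 changes were -2.25 ± 0.19 (SE) in Gcn2+/+ mice and -1.96 ± 0.19 in Gcn2-/- mice, 4.77-fold and 3.89-fold lower. The Gcn2-/- effect minus the Gcn2+/+ effect, 0.29 ± 0.28, had a 95% interval from -0.28 to 0.87. With the number at the start of each title, of unstated meaning, as a block it was 0.91 ± 0.26. Within single numbers held by both Gars genotypes the log2 difference was -2.51 in Gcn2+/+ (1 mutant, 1 Gars+/+ library) and -1.30 in Gcn2-/- mice (2 mutant, 1 Gars+/+). In bulk tissue, fewer cells of a type and less RNA per cell cannot be told apart.

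Calcb encodes CGRP beta and lies 82.3 kb from Calca. It had 1.28, 1.59, 1.74 and 1.86 CPM in Gcn2+/+;GarsP278KY/+ cords, against 4.73, 4.81, 5.42 and 5.66 CPM in Gcn2+/+;Gars+/+ cords. Gcn2+/- mice had 1.51, 1.54, 1.84 and 2.13 CPM with mutant Gars, against 3.97, 4.03, 4.05 and 4.56 CPM with wild-type Gars. Gcn2-/- mice had 1.74, 1.99, 2.09, 2.27 and 2.76 CPM with mutant Gars, against 3.99, 4.14 and 4.88 CPM with wild-type Gars. These groups did not overlap at any Gcn2 genotype. The log2 change was -1.67 ± 0.16 (SE) in Gcn2+/+ and -1.0 ± 0.16 in Gcn2-/- mice, 3.18-fold and 2-fold lower. The Gcn2-/- effect minus the Gcn2+/+ effect, 0.67 ± 0.23, had an interval from 0.19 to 1.15, and was 0.88 ± 0.31 with title numbers as a block.

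**Figure D2:**
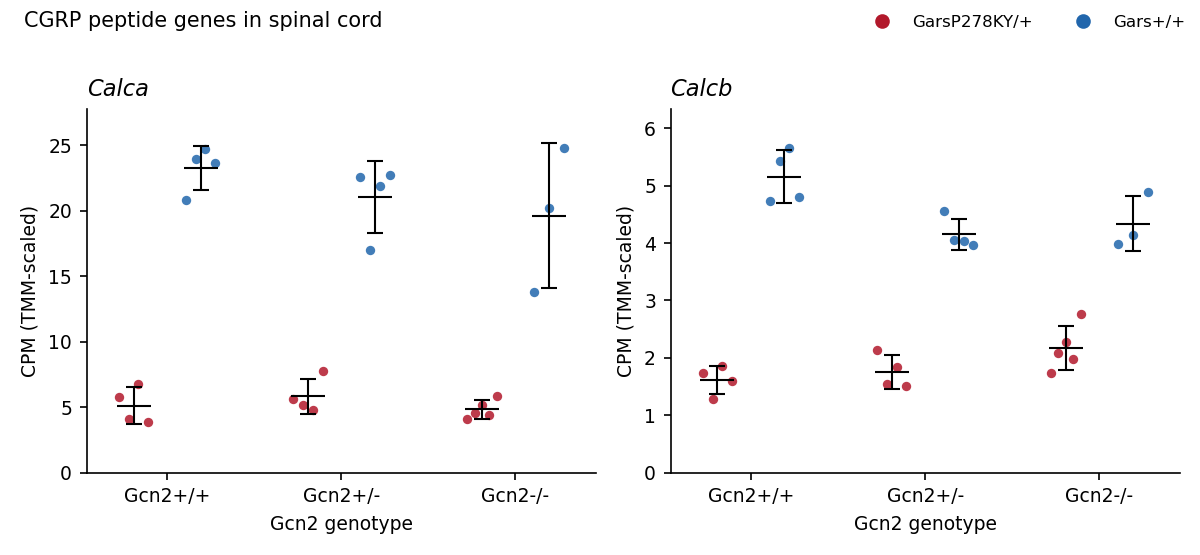
CPM of Calca and Calcb by Gcn2 genotype, GarsP278KY/+ (red) left of Gars+/+ (blue); points are libraries, bars the mean and SD. All mutant libraries sit at or below 7.79 CPM for Calca and 2.76 CPM for Calcb, under every Gars+/+ library.

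A full separation of all 13 mutant from all 11 Gars+/+ libraries in the lower direction was seen in 4 of 17409 tested genes, 0.023% of them. Besides Calca and Calcb, these were Pappa, a protease that cleaves IGF-binding proteins, and Rimkla, an enzyme that makes the neuronal dipeptide N-acetylaspartylglutamate. Both were named after this separation was seen. Pappa had 6.26 to 9.56 CPM (median 7.50) in mutants, against 9.98 to 14.1 CPM (median 11.7) in Gars+/+ libraries. Rimkla had 79.2 to 101 CPM in mutants, against 105 to 118 CPM in Gars+/+ libraries. Within single Gcn2 genotypes, 4.16% of tested genes were lower without overlap in Gcn2+/+, 3.41% in Gcn2+/- and 1.71% in Gcn2-/- mice.

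In Gcn2+/- mice the log2 change with mutant Gars was -1.88 ± 0.19 (SE) for Calca (95% interval -2.28 to -1.49) and -1.24 ± 0.16 for Calcb (interval -1.57 to -0.91). Each of the 4 mutants lay below each of the 4 Gars+/+ libraries in both genes. Without the 5 libraries of high Schwann score the changes were -1.87 for Calca and -1.11 for Calcb. Over all 17409 tested genes, edgeR's quasi-likelihood test with Benjamini-Hochberg adjustment called 31 genes (0.178%) in this comparison at an adjusted p under 0.05, 9 of them higher (0.0517%) and 22 lower (0.126%), and 4 without those libraries. None of the 5 receptor parts was called.

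The Schwann score also moved with the Gars effect in Gcn2+/+ mice: the libraries with the lowest Calca, 3.91 and 4.08 CPM, were the 2 of high score. In Gcn2+/- mice the mutant of high score, replicate 4, had the highest Calca of all 13 mutants, 7.79 CPM. The Gcn2+/-;Gars+/+ replicates of high score had 22.6 and 21.9 CPM, against 17.0 and 22.7 CPM in the others of that group. The part of the score in the Calca values was not tested beyond leaving libraries of high score out. Without the 5 libraries, the log2 change of Calca in Gcn2+/+ mice was -1.95 ± 0.19 and that of Calcb -1.54. The Gcn2-/- effect minus the Gcn2+/+ effect in Calca was then 0.01 ± 0.24, against 0.29 with all libraries and 0.91 with title numbers as a block, and that in Calcb 0.56 ± 0.25. The title numbers fall into a higher and a lower set. Within the higher set the Calca change was -2.48 in Gcn2+/+ and -1.89 in Gcn2+/- mice. Within the lower set it was -1.97 in Gcn2+/+, -1.80 in Gcn2+/- and -1.77 in Gcn2-/- mice. Gcn2-/-;Gars+/+ libraries all had numbers of the lower set. Calcb was lower in mutants in each of these sets as well, by log2 differences between -1.75 and -0.77.

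**Figure D3:**
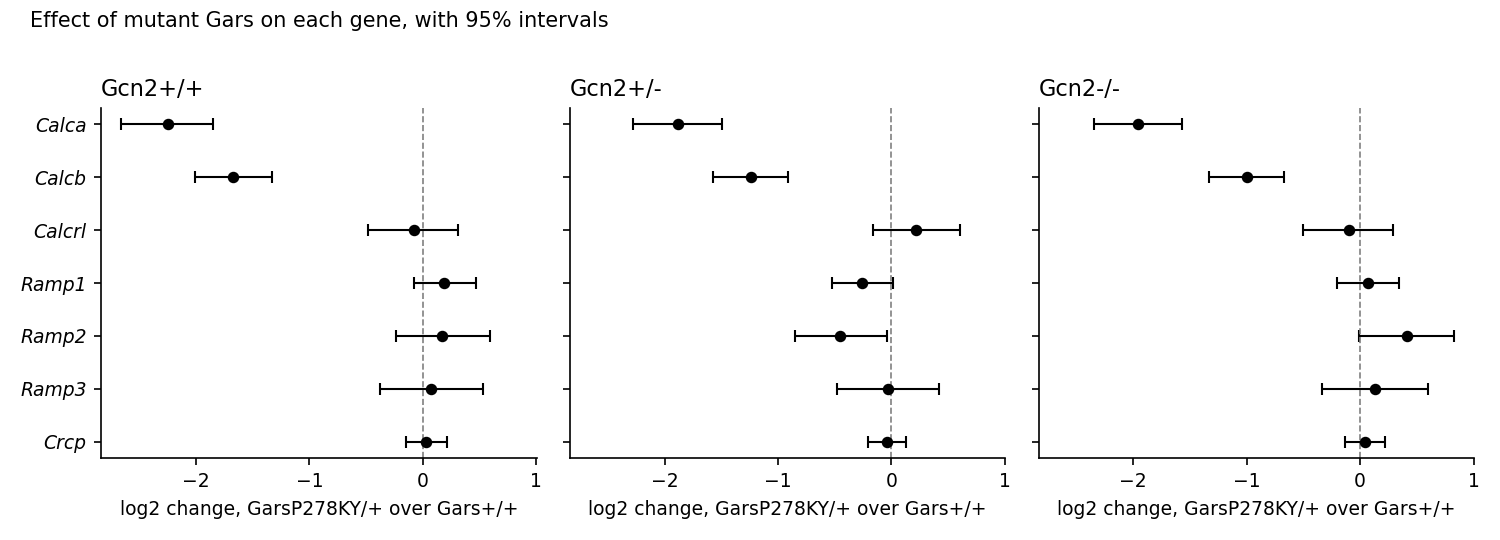
Log2 change of each gene, GarsP278KY/+ over Gars+/+, at each Gcn2 genotype; points are fitted values and bars 95% intervals from the edgeR fit of all 24 libraries. Calca and Calcb lie left of 0 in all 3 panels, from -2.25 to -1.0; of the receptor intervals only that of Ramp2 in Gcn2+/- mice, -0.85 to -0.04, leaves out 0.

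Between Gcn2 genotypes at the same Gars genotype, the peptide genes differed less than between Gars genotypes. With mutant Gars, Gcn2-/- differed from Gcn2+/+ cords by -0.04 ± 0.18 in log2 Calca (95% interval -0.41 to 0.34), and by -0.34 ± 0.16 without the 5 libraries of high Schwann score. Calcb was at 2.17 ± 0.384 CPM (SD, n = 5) in Gcn2-/-;GarsP278KY/+ and 1.62 ± 0.249 CPM (n = 4) in Gcn2+/+;GarsP278KY/+ cords, a log2 change of 0.42 ± 0.15 (interval 0.11 to 0.74). In this comparison 86 genes (0.494%) were called, and none of the receptor parts, by edgeR, by DESeq2 or at an unadjusted p under 0.05, which 10% of genes passed. With wild-type Gars, Gcn2 loss shifted Calca by -0.33 ± 0.20 (interval -0.75 to 0.09) and Calcb by -0.25 ± 0.17 (interval -0.60 to 0.10). There 5 genes (0.0287%) were called, and no receptor part by edgeR, by DESeq2 or at an unadjusted p under 0.05, which 3.68% of genes passed.

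With 1 Gcn2 copy lost and wild-type Gars, Calca shifted by -0.15 ± 0.18. Calcb had 3.97 to 4.56 CPM in Gcn2+/- and 4.73 to 5.66 CPM in Gcn2+/+ cords, lower without overlap, as were 3.49% of tested genes, at a log2 change of -0.31 ± 0.15. In that comparison edgeR called 0 of all genes, although 3001 had an unadjusted p under 0.05, DESeq2 called 459, and edgeR called 664 without Gcn2+/+;Gars+/+ replicate 1. With mutant Gars the shifts were 0.22 ± 0.19 for Calca and 0.12 ± 0.16 for Calcb, where edgeR again called 0 of all genes and 1900 had an unadjusted p under 0.05. The receptor parts were called by neither tool in either comparison, but DESeq2 gave Ramp3 no adjusted p in the first. In males against females, Calca differed by -0.16 ± 0.11 and Calcb by 0 ± 0.10 (edgeR adjusted p = 1), and no member was called among the 14 genes (0.0804%) that were.

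The fitted change of Calca was larger than that of Calcb at each Gcn2 genotype. The log2 ratio of Calca to Calcb counts (0.5 added to each) averaged 1.63 ± 0.25 in Gcn2+/+;GarsP278KY/+ and 2.17 ± 0.08 in Gcn2+/+;Gars+/+ cords (SD). It averaged 1.72 ± 0.45 with mutant and 2.33 ± 0.19 with wild-type Gars in Gcn2+/- mice. Without Gcn2 the averages were 1.16 ± 0.05 with mutant and 2.13 ± 0.31 with wild-type Gars. The ratio was lowest in Gcn2-/-;GarsP278KY/+ cords, 1.09 to 1.23, below each Gcn2+/+;GarsP278KY/+ cord (1.28 to 1.86). These ratios come from the values that chose the genes and were not tested.

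Calca makes its calcitonin or CGRP messenger by the choice of the last exons. The deposited gene length of Calca, which weights its transcripts by abundance, was at its longest value, 992 bases, in 13 of 24 libraries, and that length is close to the 994 bases of the CGRP transcript in GENCODE M21. Set against the 830 bases of the calcitonin transcript, the other libraries imply a calcitonin share of at most 2.29%. Its maximum was 1.30%, 2.29% and 1.62% in Gcn2+/+, Gcn2+/- and Gcn2-/- mice with mutant Gars, against 0.35%, 0.45% and 0.14% with wild-type Gars. Mutant libraries held 97 to 211 Calca counts, so such shares stand for few reads. The coding part of the calcitonin exon was 44.3% identical to exon 4 of Calcb, and the CGRP exon 94.5%.

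Motor neuron genes were set beside Calca, as motor neurons are its main known source within the cord. Of 24 tested genes on a list of 25, edgeR called 10 lower and 0 higher with mutant Gars in Gcn2+/+ mice, where 0.419% of all genes were called lower and 0.213% higher. In Gcn2+/- mice 8 were called lower, where 0.126% of all genes were. In Gcn2-/- mice 0 were called, with 1 gene above and 2 below at an unadjusted p under 0.05, which 4.35% of all genes passed. DESeq2 called 1 higher and 0 lower there. Of all genes 2 (0.0115%) were called there, so a 0 does not show that the listed genes were unchanged. Median log2 changes of the list were -0.44, -0.30 and -0.06 in Gcn2+/+, Gcn2+/- and Gcn2-/- mice, while those of all genes were 0.01, -0.01 and 0. Chodl, known from the motor neurons of fast muscle units, had 6.45 ± 1.16 CPM with mutant and 28.6 ± 5.87 CPM with wild-type Gars in Gcn2+/+ mice (SD, n = 4 each). Gcn2-/- cords held 18.3 ± 1.21 CPM (n = 5) of Chodl with mutant and 22.6 ± 2.14 CPM (n = 3) with wild-type Gars. Chat, the enzyme of acetylcholine synthesis, changed by -0.55 ± 0.07 in Gcn2+/+ mice (edgeR adjusted p = 0.000378) and by -0.53 ± 0.07 in Gcn2+/- mice (edgeR adjusted p = 0.000933). Without the 5 libraries of high Schwann score, edgeR called 7 motor neuron genes lower in Gcn2+/+ mice, 2 in Gcn2+/- and 0 in Gcn2-/- mice, where 1 gene was above and 2 below at an unadjusted p under 0.05. Of all genes, 0.126%, 0.0172% and 0.00574% were then called lower in Gcn2+/+, Gcn2+/- and Gcn2-/- mice. Chat in Gcn2-/- cords had 18.9 to 21.9 CPM with mutant and 19.3 to 23.0 CPM with wild-type Gars. Of the other listed genes, Nefl had 1440 to 1610 CPM with mutant and 1680 to 1880 CPM with wild-type Gars there. Vipr2 had 3.07 to 3.79 CPM with mutant and 3.92 to 6.05 CPM with wild-type Gars. Both were lower without overlap, as were 1.71% of tested genes, and were named after this was seen. Of the 24 log2 changes there, 9 were above 0 and 15 below.

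Between the mutant groups, with Gcn2-/- set against Gcn2+/+ cords, 9 of the 24 motor neuron genes rose and 0 fell, with a median log2 change of 0.31, in a comparison where 0.236% of all genes were called higher and 0.258% lower. Chodl rose by 1.47 ± 0.20 (edgeR adjusted p = 0.000505), Nefh by 0.50 ± 0.07 (adjusted p = 0.000505) and Slc10a4 by 0.99 ± 0.15 (adjusted p = 0.00124). Nefh encodes the heavy neurofilament, and Slc10a4 a protein of cholinergic synaptic vesicles. Without the 5 libraries of high Schwann score, 2 of the 24 genes rose and 0 fell, with a median of 0.28, and 31 genes of all were called instead of 86. Chodl was then at 1.30 (edgeR adjusted p = 0.0491), Nefh at 0.39 (adjusted p = 0.0257) and Slc10a4 at 0.88 (adjusted p = 0.0739). With all libraries, the median log2 change in this comparison was -1.85 over the 16 Schwann cell genes, with 1 above and 12 below at an unadjusted p under 0.05 and 4 called lower by DESeq2. It was -2.66 over 13 genes of meninges and fibroblasts, with 0 above and 13 below and 8 called lower by DESeq2, while edgeR called 0 of either list. Their part in the motor neuron values was not tested beyond leaving those libraries out. Calca was at -0.04 with all libraries and at -0.34 without the 5 of high Schwann score. Differences between genes were not tested, nor was the part of motor neuron genes in the Calca values.

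**Figure D4:**
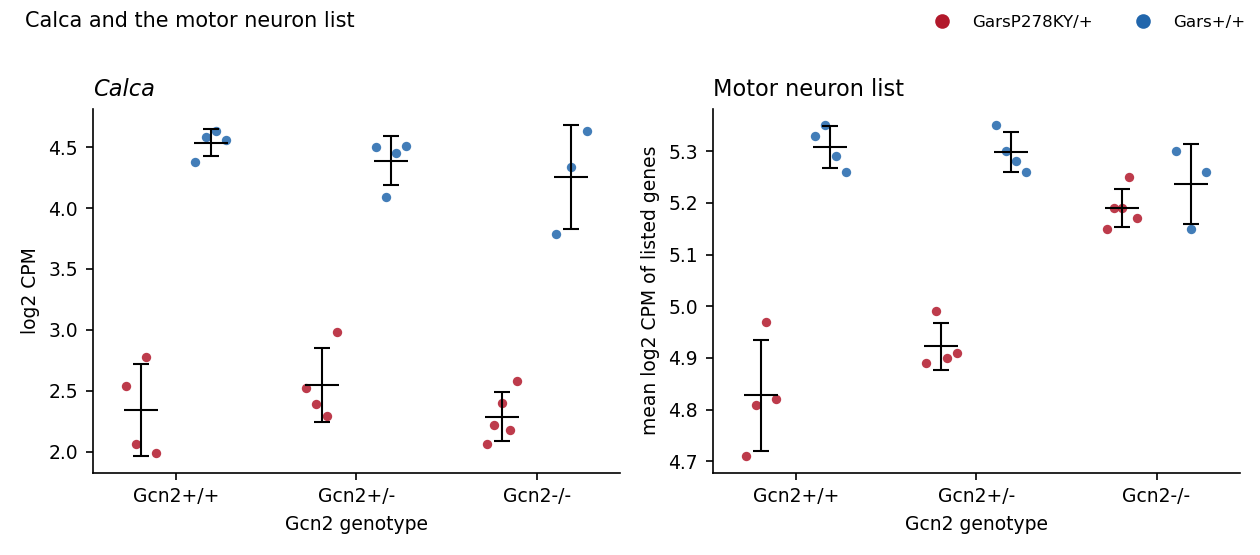
Log2 CPM of Calca and mean log2 CPM of the motor neuron list by Gcn2 genotype, GarsP278KY/+ (red) left of Gars+/+ (blue); points are libraries, bars the mean and SD, and the axes do not start at 0. In Gcn2-/- mice the list overlaps, 5.15 to 5.25 with mutant and 5.15 to 5.30 with wild-type Gars, while Calca lies at 2.06 to 2.58 with mutant and 3.79 to 4.63 with wild-type Gars.

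Sensory neuron cell bodies lie outside the cord, and their defining markers were near 0. Over all 24 libraries Scn10a summed to 32 counts, Mrgprd to 1, Prdm12 to 19 and Trpv1 to 78, and none of these passed the filter on low counts. Of the 12 tested genes on a list of 18, edgeR called 2 higher and 1 lower with mutant Gars in Gcn2+/+ mice, 1 higher and 1 lower in Gcn2+/- mice, and 0 in Gcn2-/- mice, where 0 also passed an unadjusted p of 0.05 and DESeq2 called 0. Summed over the list, levels were 759 to 964 CPM with mutant and 1160 to 1240 CPM with wild-type Gars in Gcn2+/+ mice, and 1100 to 1210 CPM with mutant and 1110 to 1200 CPM with wild-type Gars in Gcn2-/- mice. Most of this sum is Nefh, the gene called lower, which is also on the motor neuron list. P2rx3, an ATP-gated channel of nociceptors, rose by 1.86 ± 0.21 in Gcn2+/+ mice (edgeR adjusted p = 5.41e-05) and by 1.19 ± 0.21 in Gcn2+/- mice (adjusted p = 0.0132), opposite in direction to Calca. In Gcn2-/- cords P2rx3 overlapped, at 1.28 to 1.86 CPM with mutant and 0.996 to 1.53 CPM with wild-type Gars. Tac1, the substance P gene, had 17.0 to 27.2 CPM over mutant and 15.6 to 28.2 CPM over Gars+/+ libraries. Of 12 dorsal horn genes, edgeR called 2 higher and 0 lower in Gcn2+/+ mice, Skor2 (0.73, adjusted p = 0.0239) and Tlx3 (0.81, adjusted p = 0.0473), and 0 at the other Gcn2 genotypes, where 1 each was above at an unadjusted p under 0.05 and DESeq2 called 0. Without the 5 libraries of high Schwann score, edgeR called 1 sensory gene higher and 1 lower in Gcn2+/+ mice. There 0.0803% of all genes were called higher and 0.126% lower. In Gcn2+/- mice 0 sensory genes were then called higher and 1 lower, where 0.00574% and 0.0172% of all genes were. Of the dorsal horn genes, 1 was then called higher in Gcn2+/+ mice. The part of these markers in the Calca values was not tested.

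The receptor gene Calcrl lies on chromosome 2 at 84330626 to 84425411 (minus strand). It had 17.4 to 19.7 CPM in Gcn2+/+;GarsP278KY/+ and 15.8 to 26.3 CPM in Gcn2+/+;Gars+/+ cords. In Gcn2+/- mice its values were 17.9 to 26.4 CPM with mutant and 14.9 to 21 CPM with wild-type Gars, and in Gcn2-/- mice 13.2 to 25.7 CPM with mutant and 17.7 to 23.1 CPM with wild-type Gars. These groups overlapped at every Gcn2 genotype. Its log2 changes with mutant Gars were -0.08 ± 0.19, 0.22 ± 0.18 and -0.10 ± 0.19 in Gcn2+/+, Gcn2+/- and Gcn2-/- mice (edgeR adjusted p of 0.865, 0.603 and 0.962). The 95% intervals ran from -0.48 to 0.31, from -0.16 to 0.60 and from -0.50 to 0.29, so changes of the size seen in Calca lie outside them.

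Ramp1, which turns the Calcrl protein into the CGRP receptor, lies on chromosome 1 at 91179822 to 91225196 (plus strand). It had 34.9, 44.5, 44.7 and 47.3 CPM in Gcn2+/+;GarsP278KY/+ cords, against 32.5, 37.0, 37.7 and 39.9 CPM in Gcn2+/+;Gars+/+ cords. In Gcn2+/- mice it had 33.0, 34.1, 35.2 and 41.7 CPM with mutant Gars, against 37.2, 42.0, 43.4 and 48.5 CPM with wild-type Gars. These groups overlapped, with the mutant mean above the wild-type one in Gcn2+/+ and below it in Gcn2+/- mice. Without Gcn2 it had 29.6, 42.4, 44.3, 45.8 and 49.0 CPM with mutant Gars, against 38.7, 39.1 and 43.9 CPM with wild-type Gars. Log2 changes were 0.19 ± 0.13 in Gcn2+/+, -0.26 ± 0.13 in Gcn2+/- and 0.07 ± 0.13 in Gcn2-/- mice (edgeR adjusted p of 0.471, 0.352 and 0.963). The effect in Gcn2+/- minus that in Gcn2+/+ mice was -0.45 ± 0.18, with an unadjusted p of 0.0201 and an edgeR adjusted p of 0.129, in a comparison where 644 genes (3.7%) were called. The 5 libraries of high Schwann score fall on both sides of that difference, and without them it was -0.60 ± 0.23 (edgeR adjusted p = 0.281), with 0 genes called of all.

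Ramp2, the adrenomedullin receptor partner found mainly in vessels, lies on chromosome 11 at 101246028 to 101259546 (plus strand) and overlaps Vps25 on the same strand, so its expected counts may share reads with that gene. It had 8.79, 9.37, 9.63 and 9.68 CPM in Gcn2+/-;GarsP278KY/+ cords, against 9.71, 12.8, 13.8 and 14.6 CPM in Gcn2+/-;Gars+/+ cords, with no overlap but a gap of a few hundredths at the nearest pair. The log2 change there was -0.45 ± 0.19, with an unadjusted p of 0.0322 and an edgeR adjusted p of 0.307. Gcn2-/- mice had a change of 0.41 ± 0.20 (edgeR adjusted p = 0.941), at 9.14 to 16.9 CPM with mutant Gars and 7.87 to 13.1 CPM with wild-type Gars. In Gcn2+/+ mice, with 11.1 to 16.4 CPM in mutants and 8.50 to 13 CPM in Gars+/+ cords, the change was 0.17 ± 0.20 (edgeR adjusted p = 0.703). Without the 5 libraries of high Schwann score, the Gcn2+/- value was -0.34 with an edgeR adjusted p of 0.709. With mutant Gars, Gcn2+/- cords were also below Gcn2+/+ cords (11.1 to 16.4 CPM) without overlap, as were 2.93% of tested genes, at a log2 change of -0.45 ± 0.19 and an edgeR adjusted p of 0.435. Of 16 endothelial genes, none was called with mutant Gars in Gcn2+/- mice, DESeq2 called 0, and their median log2 change was -0.22. At an unadjusted p under 0.05, 4 of them were lower and 0 higher, where 14.7% of all genes passed in either direction. Their summed level was 477 to 520 CPM with mutant and 512 to 655 CPM with wild-type Gars, and its part in the Ramp2 values was not tested.

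Ramp3, the third accessory protein, lies on chromosome 11 at 6658521 to 6677475 (plus strand) and was the lowest of the 7 genes in median TPM. It had 1.71 to 2.53 CPM with mutant and 1.27 to 2.31 CPM with wild-type Gars in Gcn2+/+ mice, and the groups overlapped there and at the other Gcn2 genotypes. Its log2 changes with mutant Gars were 0.07 ± 0.22, -0.03 ± 0.22 and 0.13 ± 0.23 in Gcn2+/+, Gcn2+/- and Gcn2-/- mice (edgeR adjusted p of 0.903, 0.961 and 0.957). With 25 to 77 counts a library its intervals were wide, from -0.34 to 0.60 in Gcn2-/- mice. Crcp lies on chromosome 5 at 130029290 to 130060789 (plus strand) and was the steadiest, at 12.4 to 16.6 CPM over all libraries. Its log2 changes with mutant Gars were 0.03, -0.04 and 0.04, each ± 0.08 (edgeR adjusted p of 0.892, 0.857 and 0.963), and its widest interval ran from -0.15 to 0.21.

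**Figure D5:**
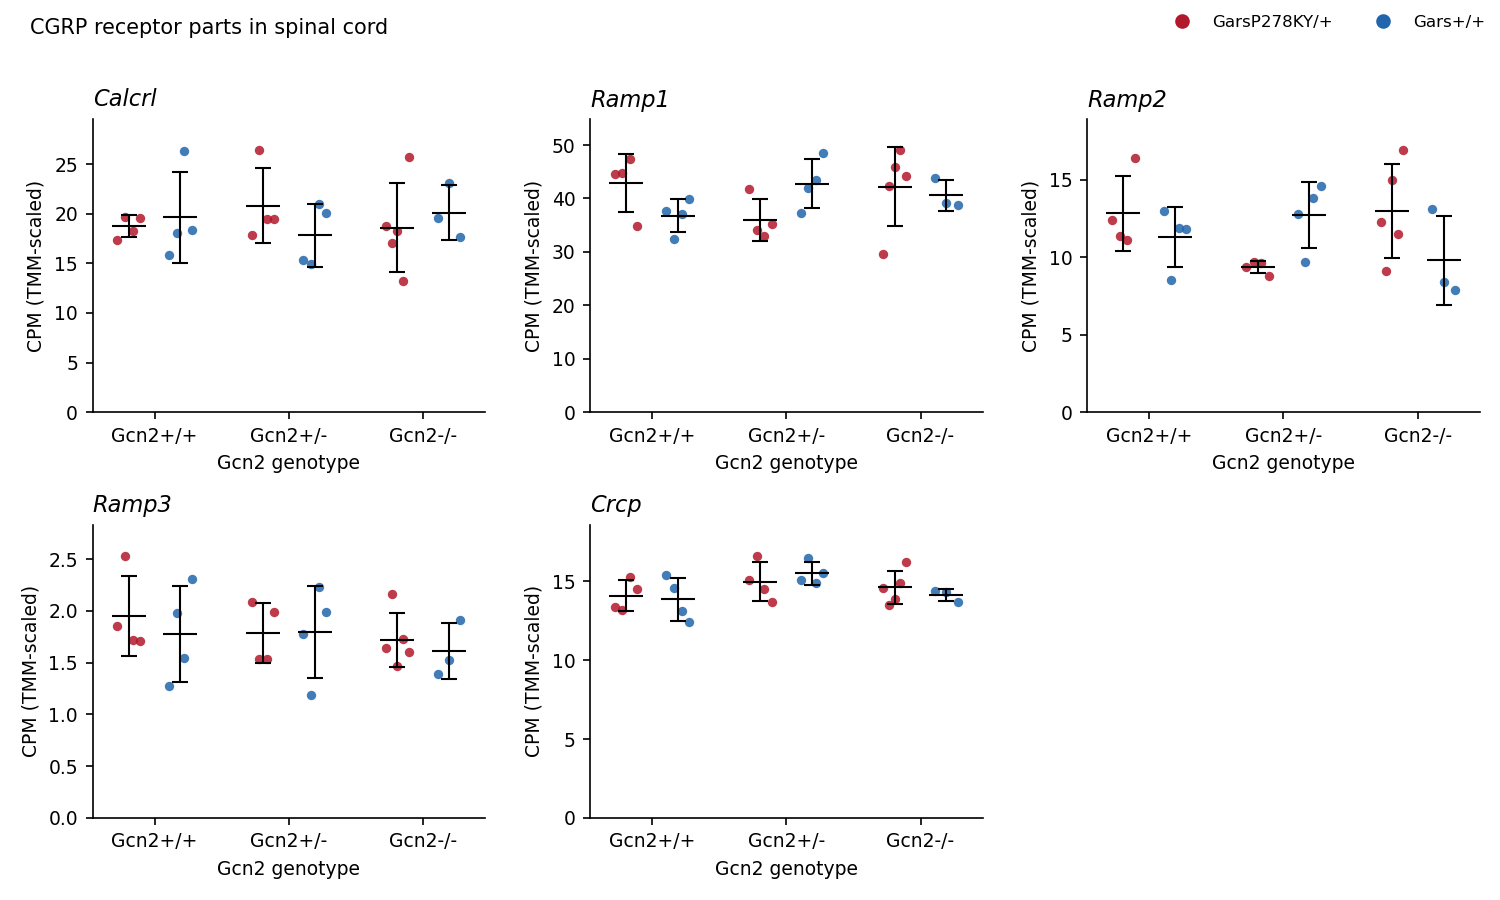
CPM of Calcrl, Ramp1, Ramp2, Ramp3 and Crcp by Gcn2 genotype, GarsP278KY/+ (red) left of Gars+/+ (blue); points are libraries, bars the mean and SD. The groups overlap in every panel and genotype except Ramp2 in Gcn2+/- mice, 8.79 to 9.68 CPM with mutant and 9.71 to 14.6 CPM with wild-type Gars.

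Over the 5 receptor parts, edgeR called 0 in each Gars comparison. At an unadjusted p under 0.05 there were 0 in Gcn2+/+ mice, where 17.3% of all genes passed that level, 1 in Gcn2+/- mice, where 14.7% did, and 0 in Gcn2-/- mice, where 4.35% did. By the adjusted p 110 genes (0.632%) were called in Gcn2+/+, 31 (0.178%) in Gcn2+/- and 2 (0.0115%) in Gcn2-/- mice. DESeq2 called 0 receptor parts in each, with no adjusted p for Ramp3 in Gcn2+/- mice. Of the summed TPM of the 3 RAMP genes, Ramp1 made up 52.9% ± 5.25, Ramp2 41.7% ± 5.54 and Ramp3 5.35% ± 1.14 (SD, n = 24 libraries). The Ramp1 share was 52.5% ± 7.02 with mutant and 50.5% ± 2.15 with wild-type Gars in Gcn2+/+ mice. Without Gcn2 the share was 52.5% ± 7.53 with mutant and 56.9% ± 3.88 with wild-type Gars. These differences were within the spread of the groups.

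Other genes of the calcitonin family and of related receptors were counted from a list of 6, of which 5 were tested and Iapp was at 0 counts in every library. By edgeR only Adm2 was called with mutant Gars, in Gcn2+/+ and in Gcn2+/- mice. DESeq2 called 0 of the list higher and 1 lower at each of these genotypes, and 0 in Gcn2-/- mice. Adm2 encodes adrenomedullin 2 (intermedin), another ligand of the Calcrl and RAMP receptors. It passed the filter on low counts only through the mutant groups in which it is high, so its values are a description. Adm2 had 17 to 41 counts in each of the 4 Gcn2+/+;GarsP278KY/+ libraries, 112 in all, against 1 count over the 4 Gcn2+/+;Gars+/+ libraries. Relative to library totals that is a ratio of 113, with an exact binomial 95% interval from 19.8 to 4490 that covers counting error only. Gcn2+/- mice had 6 to 14 counts a library with mutant Gars, 41 in all, against 0 over the 4 Gars+/+ libraries. With the wild-type group set at a floor of 3 counts over the group, it was at least 11.9-fold higher. Without Gcn2, Adm2 had 0 counts in the 5 mutant and in the 3 Gars+/+ libraries. Calca, at the same Gars genotypes, was low at every Gcn2 genotype. Vipr2, a receptor for VIP and PACAP that is also on the motor neuron list, had log2 changes of -0.80 ± 0.21, -0.90 ± 0.20 and -0.61 ± 0.20 in Gcn2+/+, Gcn2+/- and Gcn2-/- mice (edgeR adjusted p of 0.0735, 0.0720 and 0.941).

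Of 16 tested genes that process and release peptides, edgeR called 0 with mutant Gars at each Gcn2 genotype, with 1 above and 2 below at an unadjusted p under 0.05 in Gcn2+/+, 0 above and 3 below in Gcn2+/-, and 1 above and 0 below in Gcn2-/- mice. In either direction, 17.3% of all genes passed that level in Gcn2+/+, 14.7% in Gcn2+/- and 4.35% in Gcn2-/- mice. DESeq2 called 1 higher and 1 lower in Gcn2+/+, 1 lower in Gcn2+/- and 1 higher in Gcn2-/- mice. Pcsk1n, an inhibitor of the prohormone convertase PC1/3, had the smallest p each time, with log2 changes of 0.60 ± 0.14, -0.58 ± 0.14 and 0.62 ± 0.15 (edgeR adjusted p of 0.0583, 0.112 and 0.650), so its sign in Gcn2+/- mice was opposite to the others. Of 21 genes of receptor signalling through Gs and cAMP, edgeR called 0 at each genotype. At an unadjusted p under 0.05 there were 1 above and 5 below in Gcn2+/+, 2 and 1 in Gcn2+/-, and 1 and 1 in Gcn2-/- mice, and DESeq2 called 1 lower in Gcn2+/+ mice and 0 elsewhere. The genes of smallest p were Prkacb, a catalytic subunit of protein kinase A, at -0.20 ± 0.06 in Gcn2+/+ mice, and Adcy1, an adenylyl cyclase, at 0.17 ± 0.06 in Gcn2+/- mice (edgeR adjusted p of 0.112 and 0.215).

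Among 20 other neuropeptide genes, edgeR called 1 lower and 0 higher in Gcn2+/+ mice with mutant Gars, and 0 at the other Gcn2 genotypes. In Gcn2+/- mice 6 were above and 1 below at an unadjusted p under 0.05, which 14.7% of all genes passed, and DESeq2 called 1 higher. In Gcn2-/- mice there were 1 and 1, where 4.35% of all genes passed, and DESeq2 called 0. The gene called was Uts2b, which encodes urotensin 2B. It had 0.704 ± 0.194 CPM with mutant and 2.63 ± 0.796 CPM with wild-type Gars in Gcn2+/+ mice (SD, n = 4 each), a log2 change of -1.95 ± 0.29 (edgeR adjusted p = 0.00114). Gcn2-/- cords had 1.16 ± 0.127 CPM (n = 5) with mutant and 1.97 ± 0.555 CPM (n = 3) with wild-type Gars, a change of -0.72 ± 0.28 (adjusted p = 0.941). Their median log2 changes were 0.12, 0.17 and -0.04 in the order Gcn2+/+, Gcn2+/- and Gcn2-/-, against -2.25, -1.88 and -1.96 for Calca.

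Genes most like each member were ranked by Pearson's r of log2 CPM over the 24 libraries among 13561 genes, as a description. For Calca these were Calcb (r = 0.94), Pappa (0.89), Acly (0.86), Uts2b (0.84) and Rspo2 (0.82). Libraries fall into separate mutant and wild-type sets for Calca, and after removal of group means the same r values were 0.50, 0.30, 0.22, 0.69 and 0.55. For Calcb they were Calca (0.94), Pappa (0.91), Rspo2 (0.87), Dffa (0.86) and Nefl (0.85), at 0.50, 0.25, 0.38, 0.42 and 0.15 after removal of group means. Acly, which encodes ATP citrate lyase, had 353 to 442 CPM in mutants, against 430 to 496 CPM in Gars+/+ libraries. Rspo2, a secreted enhancer of Wnt signalling, had 3.19 to 5.98 CPM in mutants, against 5.83 to 8.73 CPM in Gars+/+ libraries. The receptor parts had r between -0.13 and 0.01 with Calca. Calcrl was most like Srrm1 (0.84), Itm2b (0.83) and Slc35d1 (0.79), Ramp1 like Sipa1l3 (0.85), Dusp28 (0.84) and Sgf29 (0.84), and Ramp2 like Ppp1r1b (0.82), Lrp5 (0.81) and Mical3 (0.79). Ramp3 was most like Magel2 (0.73), Egfr (0.72) and Pcdhb7 (0.69), and Crcp like Ik, Tceal3 and Myh7b (0.67 each). With group means removed, r for these genes of the receptor parts stayed between 0.62 and 0.87.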

How the data were processed

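RNA-seq of 24 spinal cords was read as stranded, poly(A)-selected paired reads of 75 bases, per the labels' protocols. Per the submitters' processing notes, the authors' tools were RSEM 1.2.12 and Bowtie2 2.2.0, which gave the deposited expected counts, TPM and FPKM per gene. An expected count divides reads that match several genes, so near-identical genes can share reads. The sources used here do not give the genome build or annotation. Symbols and positions come from GENCODE M21 (GRCm38), where 37607 of 38924 identifiers matched.

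Expected counts were rounded, filtered with filterByExpr by genotype group (17409 genes kept), scaled by TMM and tested with edgeR 4.0.16 (quasi-likelihood F test, robust, R 4.3.3) in a single fit of 6 groups plus sex, since sex was uneven over the groups. CPM are relative to TMM-scaled totals, and called means a Benjamini-Hochberg adjusted p under 0.05 over all tested genes. DESeq2 1.42.0 was an alternative. Levels between genes use the authors' deposited TPM. The deposited FPKM were checked for the members only. Alignments used Biopython 1.88. The fit was tested on simulated counts. Totals of 19.7 M to 32.4 M counts limit genes such as Ramp3.

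The members and gene lists were chosen with earlier results of these data known, and the tests planned for Calca and Calcb between genotypes are given as values only. All members are named in each comparison, up to 3 genes of smallest p of each list, and 5 (peptide genes) or 3 (receptor parts) genes of highest Pearson r; other genes are named where a result turns on them. Labels do not say that libraries are separate animals, and p-values measure only the spread between libraries.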

Additional observations from a re-analysis of the deposited data

Results flagged for a closer look

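Of 35 groups of 4 or 5 libraries tested for a library far from the others, 3 had one by Dixon's test at the 95% level, and chance gives about 1 in 20. Calca was at 17.0 CPM in replicate 2 of Gcn2+/-;Gars+/+, against 21.9 CPM in the nearest library of that group. Calcb was at 4.56 CPM in replicate 1 of the same group, against 4.05 CPM in the nearest. Ramp3 was at 2.53 CPM in replicate 2 of Gcn2+/+;GarsP278KY/+, against 1.85 CPM in the nearest, and that library is also among those of high Schwann score. Calca at 17.0 CPM is still above the highest mutant library, at 7.79 CPM.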

How the results depend on the processing

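Values of Calca and Calcb between genotypes are a description under every setting. In Gcn2+/- mice the log2 change of Calca ran from -2.10 to -1.79 over 34 alternatives. Calcb there was at -1.24 with all libraries in the fit as designed. It was at -1.21 with the own groups alone and -1.07 with title numbers as a replicate block. Without the 5 libraries of high Schwann score, an alternative chosen after seeing the data, it was at -1.11. DESeq2 gave Calcb and Ramp3 no adjusted p there. Leaving out single libraries gave -2.01 to -1.79 for Calca and -1.36 to -1.17 for Calcb. Calca in Gcn2+/+ mice moved to -1.96 without mutant replicates 2 and 4 and to -1.95 without the libraries of high Schwann score, and in Gcn2-/- mice to -1.53 where title numbers were blocked. Leaving out single libraries gave -2.41 to -2.14 and -2.16 to -1.79. With that block the differences of the Gars effect between Gcn2-/- and Gcn2+/+ mice became 0.91 for Calca and 0.88 for Calcb. For 1 Gcn2 copy lost with mutant Gars, the Calca change was 0.22 as designed and ran from -0.21 to 0.37, so its sign depended on the setting. For Gcn2 loss with wild-type Gars, the change ran from -0.79 to -0.11 for Calca and from -0.51 to -0.17 for Calcb. Causes of these shifts were not tested. No receptor part was called in 1718 values of 50 results, each value being a gene in a comparison under an alternative setting. The settings share most libraries, so these values are not independent. The smallest edgeR adjusted p was 0.0575, for Ramp1 in the Gcn2+/- effect minus the Gcn2+/+ effect. Counts of all genes called ran from 11 to 648 in Gcn2+/+, 4 to 191 in Gcn2+/- and 1 to 26 in Gcn2-/- mice. For Gcn2 loss they ran from 21 to 249 with mutant and 3 to 38 with wild-type Gars, for 1 copy lost from 0 to 16 with mutant and 0 to 664 with wild-type Gars, and for the Gcn2+/- effect minus the Gcn2+/+ effect from 0 to 1786, so the backgrounds depend on the setting. Replicate numbers were given in accession order and pair no libraries, so title numbers, shared within and across groups, served as the block. Depth limits Ramp3 and Calcb, at 25 to 77 and 37 to 153 counts a library.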
